A study of Homo sapiens with 12 samples.

Results

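Muscle actins and other contractile genes that are known targets of serum response factor (SRF) were followed across 12 RNA-seq libraries of the H1 line (WA01), established human pluripotent cells from an embryo. The set holds 10 genes of the 27130 in the deposited count table: the actins ACTA1, ACTC1 and ACTG2, the actin-binding proteins TAGLN, CNN1, CALD1, TPM1, TPM2 and FLNC, and the myosin light chain MYL9. Rows were taken by gene symbol. The set itself was chosen on values from these libraries, since it was put together when high ACTA1 and TAGLN counts in ZNF263 knockout cells were already known. The difference between knockout and wild type is therefore given as a description, without p-values, and supports nothing about the set. All 10 genes passed the expression filter (15437 genes tested), and each had counts in every library.

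The 4 groups held 3 libraries each and shared the H1 background. They were cells with a homozygous ZNF263 knockout that also overexpressed ZIC2 (knockout with ZIC2), cells with the homozygous ZNF263 knockout alone, cells that overexpressed ZNF263, and wild type (WT) cells. The library names of the knockout and WT groups carry the tag vec, and those of both knockout groups share a further tag. The labels explain neither tag and do not say whether a group is 1 clone. The study asked what ZNF263, a zinc finger transcription factor, does in pluripotency, with ZIC2, another zinc finger factor, as a cofactor.

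Actin and its partners form the contractile apparatus of muscle and the stress fibres of other cells. SRF switches on their genes through a short element, the CArG box, and does so together with myocardin (MYOCD) in muscle or with the myocardin-related factors MRTFA and MRTFB elsewhere. These cofactors are held in the cytoplasm by free actin monomers and enter the nucleus when actin polymerises, so contractile genes are known to follow the state of the cytoskeleton in cells that are not muscle. SRF also works with ternary complex factors (TCFs) of the ELK family on immediate early genes.

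Promoter sequences show how the actins of the set carry SRF's element. RefSeq windows on GRCh38.p14, which run from 250 bases before to 50 bases into each annotated start, matched 8 of the 10 genes in 14 windows (all but TAGLN and MYL9). A strict CArG box (a core of A and T only) was found in 3 of these 14 windows, 1 each of ACTA1, ACTC1 and ACTG2, and in 1.29% of all 35116 windows. A looser box with 1 G or C in its core, a form chosen after the windows were seen, lay in 3 of the 14 windows, of ACTA1, ACTC1 and CALD1, and in 6.94% of all windows. The windows of the 3 actins are printed because they hold the strict boxes, and that of CNN1 because it moved much like ACTC1 but holds neither form. Letters in capitals mark CArG boxes, strict or loose, on either strand; all read 5′ to 3′ on the gene's strand.

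ACTA1, chr1:229434045-229434344, minus strand: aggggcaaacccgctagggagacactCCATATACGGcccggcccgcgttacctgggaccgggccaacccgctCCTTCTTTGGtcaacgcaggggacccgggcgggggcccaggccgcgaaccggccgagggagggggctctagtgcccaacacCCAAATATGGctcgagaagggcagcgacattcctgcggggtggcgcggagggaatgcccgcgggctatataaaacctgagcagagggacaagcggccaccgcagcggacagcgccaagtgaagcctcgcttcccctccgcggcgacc
ACTC1, chr15:34795500-34795799, minus strand: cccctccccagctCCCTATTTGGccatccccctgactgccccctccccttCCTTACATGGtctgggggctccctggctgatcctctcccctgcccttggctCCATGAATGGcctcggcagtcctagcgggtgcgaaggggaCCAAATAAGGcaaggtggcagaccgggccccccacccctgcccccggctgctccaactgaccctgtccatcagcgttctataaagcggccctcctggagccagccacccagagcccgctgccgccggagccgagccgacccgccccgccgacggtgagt
ACTG2, chr2:73892758-73893057, plus strand: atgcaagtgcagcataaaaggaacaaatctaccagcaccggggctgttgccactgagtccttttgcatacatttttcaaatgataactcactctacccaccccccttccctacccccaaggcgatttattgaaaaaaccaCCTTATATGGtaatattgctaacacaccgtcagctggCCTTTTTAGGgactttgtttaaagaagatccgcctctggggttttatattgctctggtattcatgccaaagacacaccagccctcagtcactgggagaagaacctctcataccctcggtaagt
CNN1, chr19:11538601-11538900, plus strand: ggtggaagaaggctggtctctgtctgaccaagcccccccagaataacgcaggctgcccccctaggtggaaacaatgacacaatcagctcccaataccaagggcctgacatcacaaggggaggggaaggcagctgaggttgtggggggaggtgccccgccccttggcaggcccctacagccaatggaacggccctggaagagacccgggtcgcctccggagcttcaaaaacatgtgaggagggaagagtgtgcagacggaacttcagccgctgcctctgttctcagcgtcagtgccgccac

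Counted from the base just before the start as -1, the strict box began at position -97 in ACTA1, at -109 in ACTC1, and at -110 and -73 in ACTG2. ACTA1 had looser boxes at -224 and -178, and ACTC1 had looser boxes at -237, -200 and -149. The letters TATAAA, searched on the gene's strand, followed at -30 in ACTA1 and -31 in ACTC1, and 7.33% of all windows hold them. The MCAT core CATTCC, the letters read by TEAD factors, was present on either strand in 5 of the 14 windows, of ACTA1, ACTC1, CALD1 and FLNC, against 14.0% of all windows. The letters GGAGGA, letters found in published ZNF263 motifs, were present on either strand in 5 of the 14 windows, of ACTC1, CALD1 and TPM2, against 36.6% of all windows. No match overlapped another motif in the printed actin windows. These matches describe letters in the windows, not bound sites.

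Library depth ran from 17175183 to 43464609 counts, and only knockout replicate 1 exceeded 21804410. ZNF263 stood at 30.1 to 35.9 CPM (read counts relative to the library's total, scaled by TMM) in knockout with ZIC2, 30.9 to 31.2 in knockout, 219 to 251 in cells that overexpressed it, and 38.2 to 40.7 in WT cells, so its transcript was still counted in knockout cells. ZIC2 reached 1878 to 2226 CPM in knockout with ZIC2 and 152 to 217 CPM in all other libraries. All 10 markers of human embryonic stem cells that were examined, among them SOX2, NANOG and LIN28A, were present in every group, with summed levels of 9332 to 9503 CPM in knockout with ZIC2, 9708 to 9890 in knockout, 9645 to 9819 under ZNF263 overexpression and 9431 to 9514 in WT. At an edgeR adjusted p under 0.05, 4 of the 10 were higher and 2 lower in knockout than in WT (20% and 18.5% of all tested genes). LIN28A (log2 fold change 0.20) and SALL4 (0.20) were among the higher, and the lower were L1TD1 (-0.27) and DPPA4 (-0.13). The share of counts from mitochondrial genes was 0.963 to 1.16% in the 2 knockout groups and 1.36 to 1.44% in the other 2, and the ribosomal RNA gene RNA45S5 took 0.0791 to 0.257% and 0.0471 to 0.0810% of counts in the same groups; their part in the results was not tested.

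All 10 contractile genes were higher in both knockout groups than in WT cells or in cells that overexpressed ZNF263, and for each gene the 6 knockout libraries lay above the other 6, as they did for 13.1% of all tested genes. The knockout and WT libraries on which the set was chosen are among these, so this is a description. Together they took 0.255 to 0.269% of counts in knockout with ZIC2 and 0.257 to 0.292% in knockout. They took 0.139 to 0.145% under ZNF263 overexpression and 0.152 to 0.161% in WT. In bulk libraries, more cells with a transcript and more transcript per cell cannot be told apart.

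**Figure D1:**
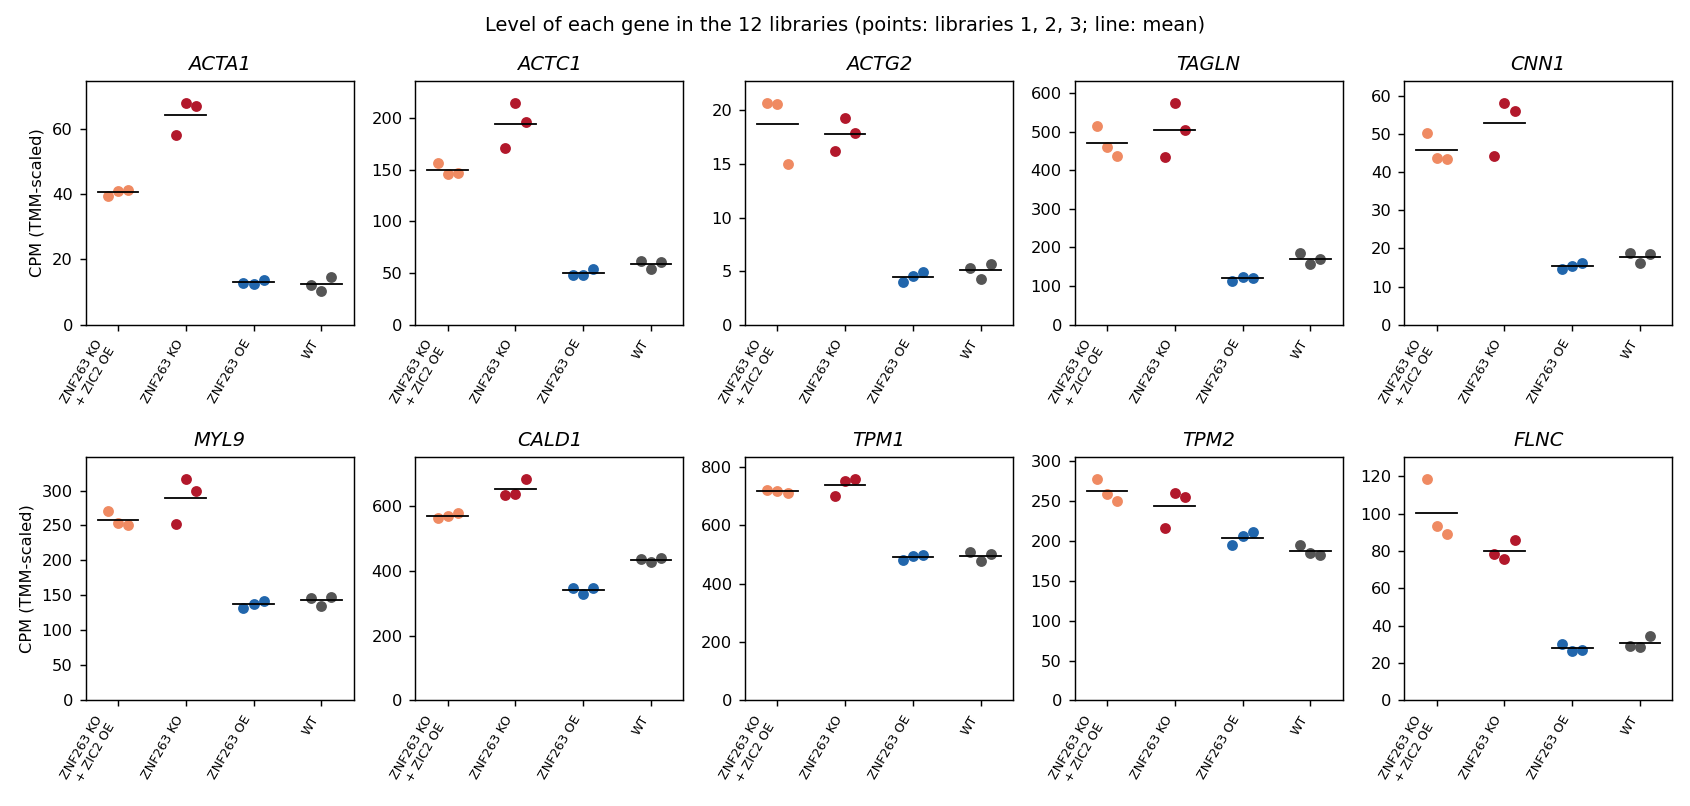
Level of each of the 10 genes in CPM (vertical axis, from 0) in the libraries of knockout with ZIC2, knockout, ZNF263 overexpression and WT; points are libraries 1, 2 and 3 and the line is their mean. In each panel the 6 knockout libraries lie above the other 6; ACTA1 stands at 39.5 to 67.9 CPM in knockout libraries and 10.2 to 14.6 CPM in the others.

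Of the actins, ACTA1, the actin of skeletal muscle thin filaments (chromosome 1, 229566993 to 229569843, hg19), showed the widest range. It stood at 39.5, 41.1 and 41.4 CPM in knockout with ZIC2, at 58.2, 67.9 and 66.9 CPM in knockout, at 12.8, 12.4 and 13.7 CPM under ZNF263 overexpression and at 12.1, 10.2 and 14.6 CPM in WT. Knockout cells were highest and knockout cells with ZIC2 intermediate, without overlap, while the ZNF263 overexpression and WT libraries overlapped. The knockout mean was 5.15 times that of WT (log2 fold change 2.37, SE 0.08), and 0.0648% of tested genes had a larger log2 fold change in that comparison. High ACTA1 in knockout was known when the set was made, so this rank is a description.

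ACTC1, the cardiac actin (chromosome 15, 35080297 to 35087927), had 157, 146 and 147 CPM in knockout with ZIC2, 171, 215 and 196 in knockout, 47.8, 48.5 and 53.6 under ZNF263 overexpression and 61.5, 54.2 and 61.2 in WT. All 4 groups were separate, in the order knockout, knockout with ZIC2, WT and ZNF263 overexpression, although the last neighbours did not differ past the test's threshold. ACTG2, the enteric smooth muscle actin (chromosome 2, 74120093 to 74146780), was the least abundant actin of the set. Its values were 20.7, 20.6 and 14.99 CPM in knockout with ZIC2, 16.2, 19.3 and 17.9 in knockout, 3.98, 4.55 and 4.90 under ZNF263 overexpression and 5.32, 4.27 and 5.62 in WT. Here the 2 knockout groups overlapped each other, as did the other 2.

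Set against all actins per length, the muscle forms were a small part of the pool. In RPKM (CPM per kilobase of gene model), ACTB and ACTG1, the cytoplasmic actins of nearly all cells, stood at 3211 ± 58.7 and 1904 ± 35.9 RPKM in knockout with ZIC2 (SD, n = 3) and at 2637 ± 105 and 1499 ± 40.8 RPKM in WT (SD, n = 3). ACTC1 stood at 40.6 ± 1.64 RPKM in knockout with ZIC2 and 16.0 ± 1.12 RPKM in WT (SD, n = 3 each). The 4 muscle actins (ACTA1, ACTC1, ACTG2 and ACTA2) made up 1.56 to 1.61% of the summed RPKM of the 6 actins in knockout with ZIC2 and 1.84 to 2.06% in knockout. They made up 0.629 to 0.699% under ZNF263 overexpression and 0.640 to 0.749% in WT. ACTA2, the vascular smooth muscle actin, which was not in the set, did not move with it: it stood at 0.597 ± 0.106 RPKM in knockout with ZIC2 and 0.696 ± 0.249 RPKM in WT (SD, n = 3 each), with a log2 fold change of -0.22 (SE 0.30, edgeR adjusted p = 0.597).

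**Figure D2:**
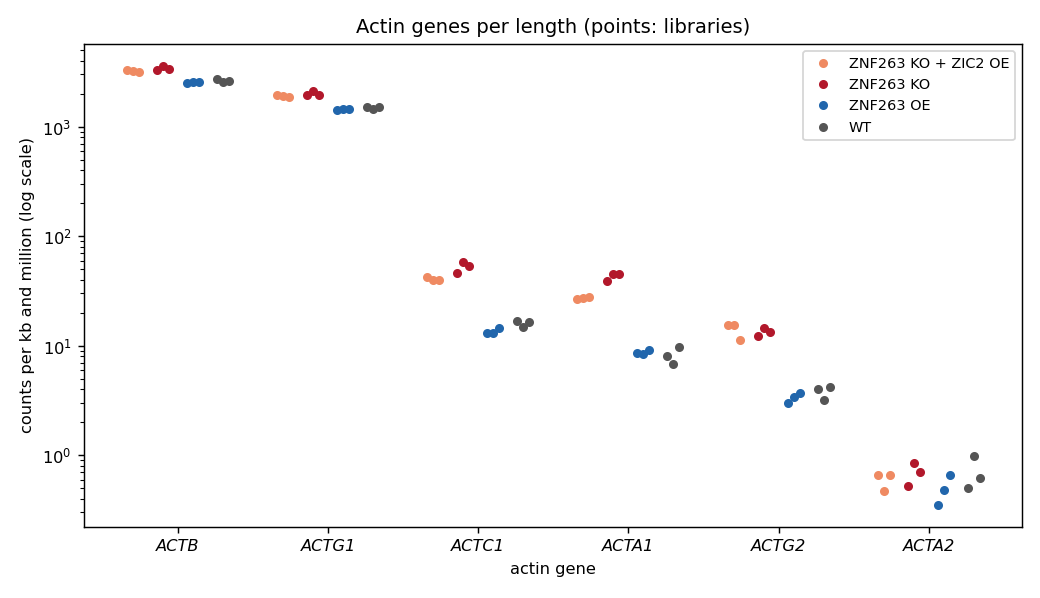
RPKM (log axis) of 6 actin genes; each point is 1 library, and colours mark knockout with ZIC2, knockout, ZNF263 overexpression and WT. ACTA1, ACTC1 and ACTG2 lie higher in both knockout groups, ACTA2 lies below 1 RPKM in all libraries, and ACTB and ACTG1 lie above all muscle actins throughout.

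Among the genes of the smooth muscle programme, the widest range of group means on the log2 scale was that of TAGLN, at 2.06, followed by CNN1 at 1.74 and MYL9 at 1.07, beside 1.94 to 2.35 for the 3 actins. TAGLN, transgelin, an early smooth muscle marker that binds actin filaments (chromosome 11, 117070040 to 117075508), had 514, 459.5 and 438 CPM in knockout with ZIC2 and 436, 574 and 505 in knockout, which overlapped. It had 113, 124 and 122 CPM under ZNF263 overexpression and 185, 157 and 169 in WT, which did not overlap. CNN1, calponin, an inhibitor of actomyosin ATPase in smooth muscle (chromosome 19, 11649532 to 11661138), had 50.1, 43.6 and 43.5 CPM in knockout with ZIC2, 44.3, 58.0 and 56.0 in knockout, 14.6, 15.3 and 16.1 under ZNF263 overexpression and 18.8, 16.1 and 18.4 in WT. For CNN1 each of these pairs of neighbouring groups overlapped. MYL9, a regulatory light chain of smooth muscle and non-muscle myosin (chromosome 20, 35169887 to 35178226), had 270.0, 254 and 250.2 CPM in knockout with ZIC2, 252, 317 and 299.7 in knockout, 132, 137 and 143 under ZNF263 overexpression and 147, 135 and 147 in WT.

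CALD1, TPM1 and TPM2 had the smallest ranges of group means, from 0.48 to 0.94 on the log2 scale. CALD1, caldesmon, which restrains myosin on actin filaments (chromosome 7, 134464164 to 134655480), had 563, 571 and 578 CPM in knockout with ZIC2, 635, 637 and 684 in knockout, 347, 328 and 346 under ZNF263 overexpression and 437, 427 and 439 in WT, so that none of the 4 groups overlapped. TPM1, a tropomyosin that winds along actin filaments (chromosome 15, 63334838 to 63364113), had 721, 717 and 711 CPM in knockout with ZIC2, 699, 752 and 758 in knockout, 481, 494 and 497 under ZNF263 overexpression and 508, 478 and 501 in WT. The tropomyosin TPM2 (chromosome 9, 35681990 to 35690053) had 278, 258 and 249.7 CPM in knockout with ZIC2, 216, 259.6 and 255 in knockout, 195, 206 and 211 under ZNF263 overexpression and 195, 185 and 182 in WT. FLNC, filamin C, the actin crosslinker of striated muscle (chromosome 7, 128470483 to 128499328), had 119, 93.3 and 89.3 CPM in knockout with ZIC2, above 78.4, 75.7 and 85.8 in knockout, and 30.1, 26.4 and 27.0 under ZNF263 overexpression and 29.1, 28.4 and 34.6 in WT.

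Per length, the order of the genes also differed between groups. In knockout cells TAGLN led at 324 ± 44.3 RPKM, followed by MYL9 at 242 ± 28.2, TPM1 at 188 ± 8.26, TPM2 at 155 ± 15.1 and CALD1 at 118 ± 5.06 RPKM (SD, n = 3 each). In WT cells TPM1 stood at 126 ± 3.88 RPKM, MYL9 at 119 ± 5.85, TPM2 at 119 ± 4.25, TAGLN at 109.5 ± 8.91 and CALD1 at 78.8 ± 1.21 RPKM (SD, n = 3 each), with MYL9, TPM2 and TAGLN within a few SDs of each other. FLNC was lowest per length in both, at 8.75 ± 0.572 RPKM in knockout and 3.36 ± 0.371 RPKM in WT (SD, n = 3 each).

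Knockout against WT was the contrast whose results were known when the set was made. A gene was called at an edgeR adjusted p under 0.05, and by that rule all 10 genes were called higher in knockout, where 20% of all tested genes were called higher and 18.5% lower; nothing is read from this count. Log2 fold changes were 2.37 for ACTA1, 1.79 for ACTG2, 1.71 for ACTC1, 1.56 for TAGLN, 1.55 for CNN1, 1.38 for FLNC and 1.01 for MYL9 (SE 0.06 to 0.13). CALD1 had 0.59, TPM1 0.57 and TPM2 0.37 (SE 0.04 to 0.06). The median over the 10 was 1.46, beside -0.01 over all tested genes. After an offset for GC content and length the value of TPM2 was 0.18.

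Knockout with ZIC2 against ZNF263 overexpression shares no library with that contrast, but the 2 groups differ in the knockout, in ZIC2 and in the ZNF263 construct at once. It does share the ZNF263 knockout with that contrast, and the library names of both knockout groups share a tag. It is therefore not independent of the choice of the set, and its counts and p-values are no support for the set. All 10 genes were higher in knockout with ZIC2 and all 10 were called, where 18.6% of all tested genes were called higher and 16.1% lower. The groups did not overlap for any of the 10, against 47.7% of all tested genes without overlap in either direction. ACTG2 was 4.18-fold higher (log2 fold change 2.06, SE 0.13, edgeR adjusted p = 3.03e-11), TAGLN 3.93-fold (1.97, SE 0.08, adjusted p = 9e-15), FLNC 3.62-fold (1.86, SE 0.09, adjusted p = 3.34e-13) and ACTA1 3.12-fold (1.64, SE 0.09, adjusted p = 1.72e-12). ACTC1 and CNN1 both had a log2 fold change of 1.58, MYL9 had 0.91, CALD1 0.74, TPM1 0.55 and TPM2 0.36 (SE 0.04 to 0.10, edgeR adjusted p of 2.35e-05 or smaller). The value of TPM2 was 0.22 after the offset for GC content and length, still called. The median over the set was 1.58, beside 0.01 over all tested genes.

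**Figure D3:**
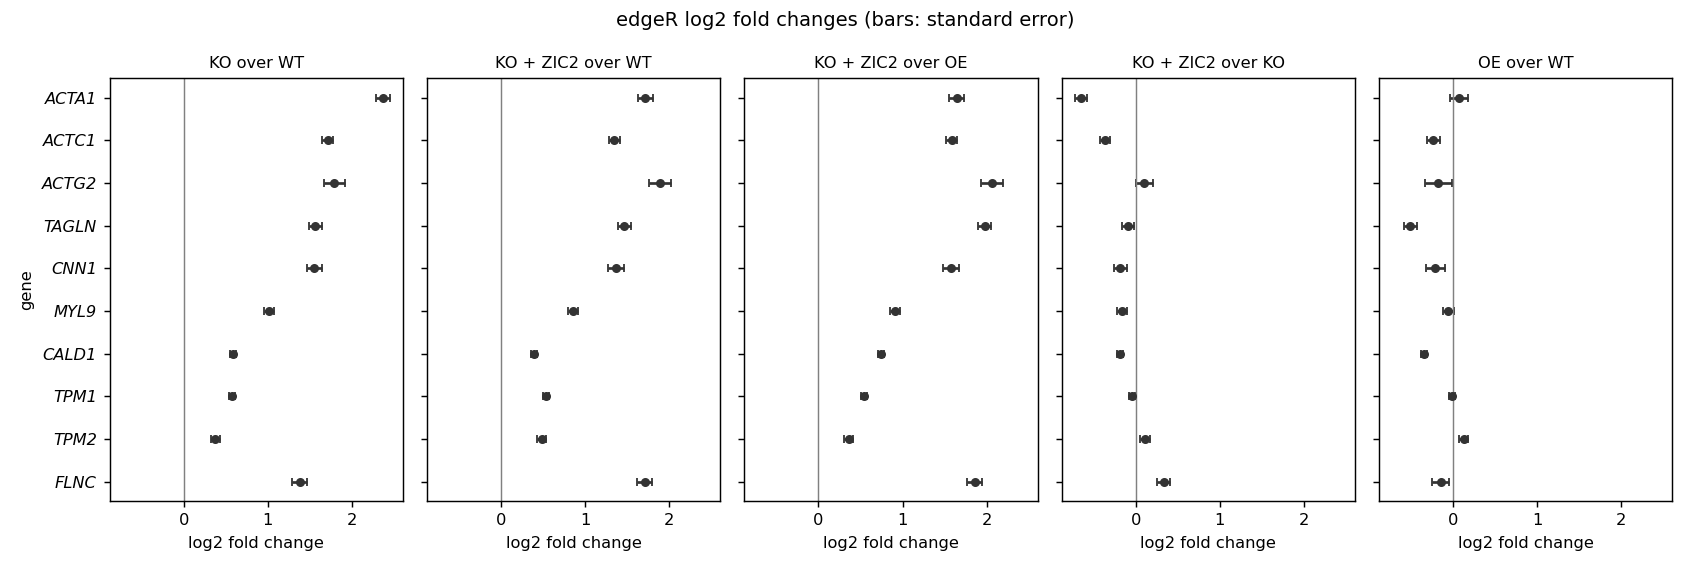
Log2 fold changes of the 10 genes (rows) in 5 comparisons, with bars of 1 standard error from edgeR. ACTA1 to TPM2 and FLNC all lie right of 0 in the 3 comparisons of a knockout group with WT or ZNF263 overexpression, whereas values in the other 2 lie between -0.65 and 0.33.

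Against WT, with which it shares the libraries of the contrast that made the set, knockout with ZIC2 was also higher for all 10 genes. All 10 were called, where 20.3% of all tested genes were called higher and 17.3% lower. Log2 fold changes ran from 0.39 (SE 0.04) for CALD1 to 1.89 (SE 0.13) for ACTG2. ACTA1 and FLNC both stood at 1.71 (SE 0.09 each). These values are a description without p-values, because the WT libraries are among those on which the set was chosen.

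Overexpression of ZIC2 in knockout cells moved the set unevenly and left every gene above WT. The knockout libraries are those in which high ACTA1 and TAGLN led to the set, so a lower value of either against them is given without a p-value. By the adjusted p under 0.05, 3 genes were called lower and 1 higher than in knockout alone, where 3.35% of all tested genes were called lower and 4.99% higher. ACTA1, one of the 3, averaged 40.6 ± 1.04 CPM in knockout with ZIC2 and 64.3 ± 5.31 CPM in knockout (SD, n = 3 each; log2 fold change -0.65, SE 0.07). ACTC1 fell to 150.0 ± 6.07 CPM, against 194 ± 21.8 CPM in knockout (SD, n = 3 each), a log2 fold change of -0.37 (SE 0.06). CALD1 fell by 0.19 on the log2 scale (SE 0.04). FLNC rose to 100.4 ± 15.9 CPM, against 79.97 ± 5.22 CPM in knockout (SD, n = 3 each; log2 fold change 0.33, SE 0.08, edgeR adjusted p = 0.00773). The FLNC call was lost without knockout with ZIC2 replicate 1, the highest library (0.19, edgeR adjusted p = 0.116), and with the test of DESeq2 (0.32, adjusted p = 0.112).

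The other 6 genes did not pass the test between the knockout groups. ACTG2 had a log2 fold change of 0.10 (SE 0.10, edgeR adjusted p = 0.662) and TPM2 had 0.11 (SE 0.05, edgeR adjusted p = 0.278). TPM1 had -0.04 (SE 0.04), TAGLN -0.10 (SE 0.07), MYL9 -0.16 (SE 0.06) and CNN1 -0.19 (SE 0.08). These 6 genes moved with single knockout libraries: replicate 1, the deepest, was the lowest of its group for 9 of the 10 genes, and replicate 2 the highest for 7. Without replicate 1, TAGLN stood at -0.20, CNN1 at -0.32 and MYL9 at -0.26, and 6 genes were called lower and 1 higher. Without knockout replicate 2, TAGLN stood at 0.00, CNN1 at -0.11 and MYL9 at -0.09, none called, and TPM2 was called at 0.16 (edgeR adjusted p = 0.0312).

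Overexpression of ZNF263 in cells with an intact gene went with lower TAGLN and CALD1. TAGLN fell to 119.7 ± 5.57 CPM under ZNF263 overexpression, against 171 ± 13.9 CPM in WT (SD, n = 3 each; log2 fold change -0.51, SE 0.08, edgeR adjusted p = 0.000734). CALD1 fell to 341 ± 10.7 CPM, against 434 ± 6.67 CPM in WT (SD, n = 3 each; log2 fold change -0.35, SE 0.04, edgeR adjusted p = 6.5e-06). In this comparison 0.447% of all tested genes were called lower and 0.317% higher, and its WT libraries are those of the contrast that made the set. Both calls held when any 1 of the 6 libraries of these groups was left out. The other 8 genes did not pass, with log2 fold changes from -0.24 (ACTC1, SE 0.07, edgeR adjusted p = 0.174) to 0.12 (TPM2, SE 0.06, edgeR adjusted p = 0.428). ACTA1, the gene with the widest range over the 4 groups, had 0.07 (SE 0.11, edgeR adjusted p = 0.875). ACTC1 was lower in all 3 overexpression libraries than in any WT library, and passed the test in a fit of these 2 groups alone (log2 fold change -0.23, edgeR adjusted p = 0.00296).

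SRF itself and some of its partners differed in the same direction as the set. This list and those that follow were written with the set, when earlier results of these data were known. Their counts and p-values for knockout against WT are therefore a description and no support for the set. SRF stood at 187, 191 and 181 CPM in knockout with ZIC2, 187, 195 and 194 in knockout, 154, 151 and 158 under ZNF263 overexpression and 146, 139 and 152 in WT. It was 1.31-fold higher in knockout than in WT (log2 fold change 0.39, SE 0.04, edgeR adjusted p = 7.75e-08) and 1.205-fold higher in knockout with ZIC2 than under ZNF263 overexpression (0.27, SE 0.04, edgeR adjusted p = 1.66e-05). MYOCD, myocardin, was scarce, with 8.36, 8.44 and 9.49 CPM in knockout with ZIC2, 7.34, 7.43 and 7.74 in knockout, 3.49, 2.49 and 3.72 under ZNF263 overexpression and 3.47, 4.59 and 4.53 in WT. Its knockout level was 1.77 times that of WT (log2 fold change 0.83, SE 0.12, edgeR adjusted p = 1.85e-05), and neither ZIC2 (0.23, SE 0.11, edgeR adjusted p = 0.253) nor ZNF263 overexpression (-0.37, SE 0.15, edgeR adjusted p = 0.374) moved it past the threshold. MKL1, which encodes MRTFA, was higher in knockout (0.33, SE 0.07, edgeR adjusted p = 0.000403), and MKL2, which encodes MRTFB, was lower (-0.23, SE 0.08, edgeR adjusted p = 0.0229). Of the 7 genes for SRF and its cofactors, 3 were higher and 2 lower in knockout (20% and 18.5% of all tested genes), the other lower gene being ELK4.

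Paralogs of the set, most of them genes of the general cytoskeleton, were for the most part also higher in knockout. Of 14 such paralogs (all tested), 12 were called higher and none lower than in WT, where 20% of all tested genes were called higher, with a median log2 fold change of 0.29 beside -0.01 over all tested genes. TAGLN2, a transgelin outside muscle, had 0.77 (SE 0.06, edgeR adjusted p = 2.21e-09), ACTG1 had 0.42 (SE 0.03, edgeR adjusted p = 9.89e-10) and the calponin CNN2 had 0.41 (SE 0.04, edgeR adjusted p = 2.45e-08). ACTA2 and the neuronal transgelin TAGLN3 were the 2 not called. In knockout with ZIC2 against ZNF263 overexpression, 10 of the 14 were higher and none lower (18.6% and 16.1% of all tested genes), with a median of 0.26. No paralog was called between the 2 knockout groups or between ZNF263 overexpression and WT, where 1288 and 118 of all tested genes were called.

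Other genes known to answer to MRTF and SRF, 20 in number and all tested, counted 14 higher and none lower in knockout than in WT (20% and 18.5% of all tested genes), with a median log2 fold change of 0.32. CSRP1, a LIM protein of smooth muscle, had 1.098 (SE 0.07, edgeR adjusted p = 6.76e-11) and the matricellular gene CYR61 had 1.08 (SE 0.05, edgeR adjusted p = 4.96e-14). ANKRD1, a cardiac ankyrin repeat protein, had 1.71 (SE 0.37, edgeR adjusted p = 0.000849) at only 1.101 CPM in knockout and 0.317 CPM in WT. With ZIC2 in knockout cells 4 of the 20 fell and 1 rose, beside 3.35% and 4.99% of all tested genes: FILIP1L fell by 1.45 on the log2 scale (edgeR adjusted p = 0.0116) at 0.487 CPM in knockout with ZIC2 and 1.248 CPM in knockout, TGFB1I1 fell by 0.71 (edgeR adjusted p = 0.00348), CYR61 and CTGF also fell, and the focal adhesion gene TNS1 rose by 0.51 (edgeR adjusted p = 0.000545). Under ZNF263 overexpression 3 of the 20 fell and none rose, beside 0.447% and 0.317% of all tested genes. These were CYR61, CTGF and LIMA1.

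Of the immediate early genes, which SRF drives with TCFs, 9 of 10 were tested. In knockout against WT, where 20% of all tested genes were called higher and 18.5% lower, 1 of the 9 was higher and none lower, with a median log2 fold change of -0.06. That gene was IER2 (0.19, SE 0.04, edgeR adjusted p = 0.00115). In knockout with ZIC2, 5 of the 9 were higher and none lower than under ZNF263 overexpression (18.6% and 16.1% of all tested genes), with a median of 0.28. Compared with WT, 4 were higher and 1 lower there (20.3% and 17.3% of all tested genes), with a median of 0.19. In knockout against WT, other smooth muscle genes counted 1 higher and 2 lower of 9 tested (of 12), with a median of 0.09: KCNMB1, a potassium channel subunit, was higher (1.36, SE 0.29, edgeR adjusted p = 0.000806), and SYNPO2 (-0.37, SE 0.12, edgeR adjusted p = 0.0137) and the myosin light chain kinase gene MYLK (-0.33, SE 0.08, edgeR adjusted p = 0.00349) were lower. Of 27 genes of the striated sarcomere 13 were tested, with 3 higher and 1 lower in knockout and a median of 0.09, a share of higher genes close to that over all tested genes. The atrial light chain gene MYL7 (1.67, SE 0.26, edgeR adjusted p = 2.23e-05), the cardiac troponin T gene TNNT2 (0.81, SE 0.09, edgeR adjusted p = 3.9e-07) and TNNC1 (0.66, SE 0.21, edgeR adjusted p = 0.0141) were the higher ones. The lower gene was TTN (-0.29, SE 0.11, edgeR adjusted p = 0.0484), at 50.2 CPM in knockout and 62.5 CPM in WT. MYL7, TNNC1 and KCNMB1 were scarce, at 2.76, 2.69 and 1.90 CPM in knockout and 0.810, 1.67 and 0.701 CPM in WT.

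**Figure D4:**
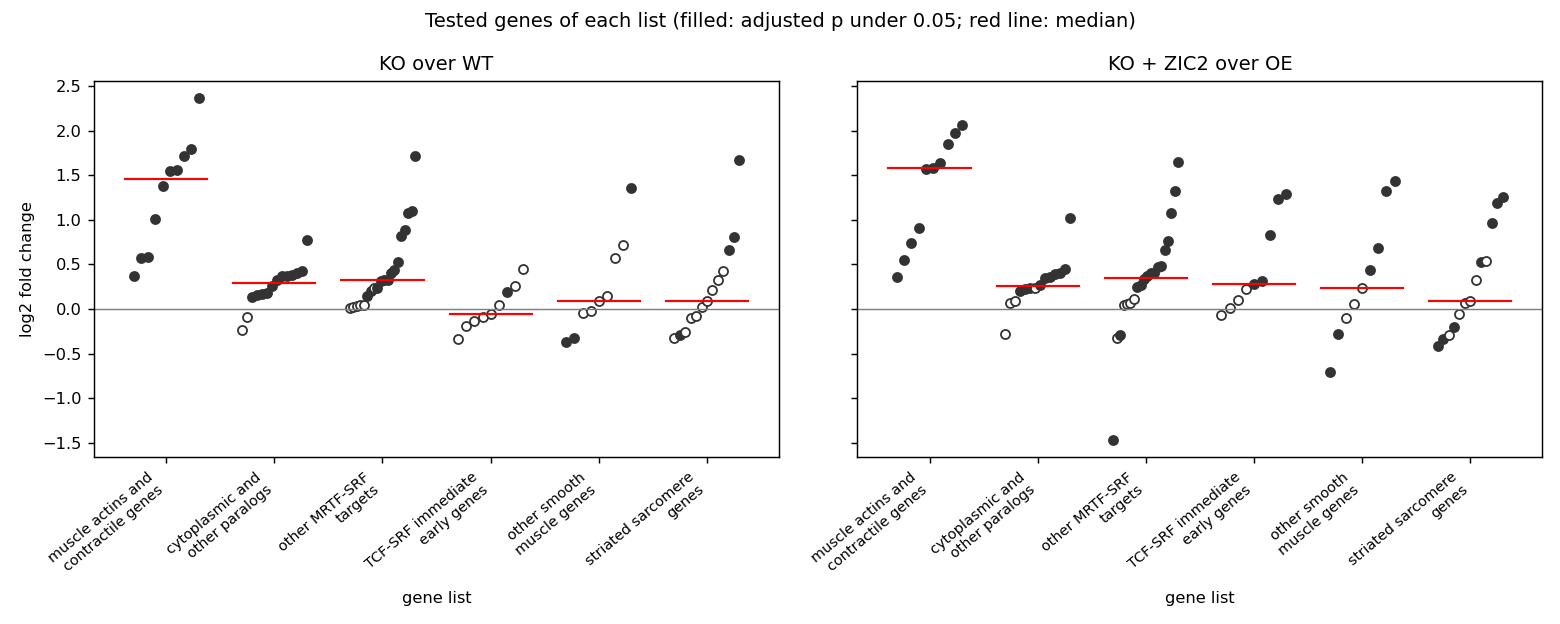
Log2 fold changes (vertical axis) of the tested genes of 6 lists for knockout over WT (left) and knockout with ZIC2 over ZNF263 overexpression (right); filled points passed an adjusted p under 0.05 and red lines are medians. For knockout over WT the medians are 1.46 for the set, 0.29 for paralogs, 0.32 for other MRTF-SRF targets, -0.06 for immediate early genes and 0.09 for the last 2 lists.

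Of 13 muscle regulators, 11 stayed below 1 CPM in every library, among them MYOD1, MYOG, MYF5, NKX2-5 and MEF2C. The summed level of the 13 was 69.3 to 74.7 CPM in knockout with ZIC2, 68.0 to 76.6 in knockout, 60.1 to 65.5 under ZNF263 overexpression and 61.1 to 64.4 in WT, higher in both knockout groups without overlap, and its part in the contractile genes' levels was not tested. Nearly all of this sum came from MEF2D and MEF2A. MEF2D, a broadly expressed MEF2 factor, had 36.3 CPM in knockout with ZIC2, 33.4 CPM in knockout and 26.6 CPM in WT (knockout against WT: log2 fold change 0.34, SE 0.07, edgeR adjusted p = 0.000296). MEF2A had 34.4, 38.2 and 35.1 CPM in the same groups and was not called in knockout against WT (0.12, SE 0.06, edgeR adjusted p = 0.11). Below 1 CPM in every library were also 14 of the 27 sarcomere genes, including MYH6, MYH7, MYL2 and CKM. The summed level of the 27 sarcomere genes was 138 to 150.0 CPM in knockout with ZIC2, 138 to 159.7 in knockout, 151 to 154 under ZNF263 overexpression and 141 to 158 in WT, with knockout with ZIC2 below ZNF263 overexpression and every other pair of groups overlapping. Of 12 markers of fibroblasts and mesenchyme, COL3A1, DCN, LUM and FAP were below 1 CPM in every library. In knockout against WT, 5 of the 8 tested were called higher and none lower (20% and 18.5% of all tested genes). The summed level of the 12 was 657 to 710.0 CPM in knockout with ZIC2, 577 to 620.1 in knockout, 529 to 544 under ZNF263 overexpression and 528 to 538 in WT. The sum was thus higher in both knockout groups, as the contractile genes were, and its part in their levels was not tested. COL1A1 held much of that difference, at 211 CPM in knockout with ZIC2, 111 in knockout, 64.9 under ZNF263 overexpression and 69.2 in WT. In knockout with ZIC2 against WT, 4 of the 8 were called higher and 1 lower, beside 20.3% and 17.3% of all tested genes. The lower gene was THY1 (301 against 337 CPM).

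Likeness of pattern was measured as the distance between the 4 group means of log2 CPM, each gene centred on its own mean, over 11204 tested genes with at least 5 CPM in their highest group. For these means, and for the ranges of group means above, 0.5 was added to each CPM before the log. Within the set, CNN1 and ACTC1 were the nearest pair (distance 0.157), and TPM1 and TPM2 lay 0.239 apart. ACTA1 lay 0.454 from ACTC1, its nearest neighbour within the set, and 1.70 from TPM2. Outside the set, the genes nearest to ACTA1 were the co-chaperone DNAJA4 (0.246), the mitochondrial thioredoxin reductase TXNRD2 (0.459) and the metallothionein MT1X (0.521). Nearest to TAGLN were the noncoding RNA CYTOR (0.0541), the G protein regulator RGS9 (0.126) and the caveolin CAV1 (0.145), and nearest to ACTC1 were the actin bundler LCP1 (0.130), TXNRD2 (0.137) and the phosphatase DUSP8 (0.137).

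No exon of the 10 genes overlapped an exon of another gene in the table. In GENCODE 29 transcripts, 1.81% of the 50-base words of ACTA1 also occurred in another gene, as did 0.274% for ACTC1, 0.0719% for ACTG2, 1.2% for TPM1 and 3.49% for FLNC, and none for the other 5 genes. What this sharing does to the counts was not tested.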

How the data were processed

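Poly(A) RNA of 12 H1 libraries was sequenced. The deposited table holds raw counts of reads for each gene and library; per the file headers they came from uniquely aligned reads. The submitters' processing notes name STAR, featureCounts, DESeq2 and hg19 and give no version. Unique alignment lowers counts of near-identical genes. Per the labels' protocols the kit was NEBNext Ultra II, which does not mark strand. Whether replicates were separate cultures is not given, so p-values measure only the spread between libraries, which may be technical.

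Counts were filtered (filterByExpr), scaled by TMM and fitted with the quasi-likelihood test of edgeR 4.0.16 (R 4.3.3) over all 12 libraries with group as the only term (common biological coefficient of variation 0.0397, 8 residual degrees of freedom); p-values were adjusted by Benjamini-Hochberg over all 15437 genes tested. SE is the log2 fold change divided by the root of F. The script was tested on simulated data. RPKM was computed from the deposited gene length, CPM from TMM-scaled totals. No sample column was left unmapped. GC content came from the longest GENCODE 29 transcript (97.07% of tested genes). The planned comparison of actin proteins was not run.

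Members and lists were chosen with earlier results of these data known. Every member is named; of the other lists, SRF, its cofactors, other actins and up to 3 called genes with the largest change (knockout against WT, and ZIC2 in knockout) are named, and the 3 nearest genes to the 3 members of widest range. Other list genes named (ELK4, CTGF, LIMA1, TAGLN3, MEF2A, TTN and those below 1 CPM) were chosen after their values were seen.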

Additional observations from a re-analysis of the deposited data

How the results depend on the processing

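Settings tried were other scaling factors (DESeq2 size factors, upper quartile), the DESeq2 1.42.0 test, no filter, only the 2 groups compared, each library left out, a replicate block, an offset for GC content and length with and without the block, and a minimum change of 1.5-fold. All 10 members were called higher in each of the 3 comparisons of a knockout group with WT or ZNF263 overexpression under every setting except the minimum change, which called 7 (knockout against WT), 7 (knockout with ZIC2 against WT) and 8 (knockout with ZIC2 against ZNF263 overexpression). The set was chosen with knockout against WT known, so these counts show dependence on the settings and are no support for the set. Between the knockout groups 4 were called; 7 were called with the GC and length offset, with or without the block, and 0 against the minimum change, and leaving out a library gave 3 to 7. With DESeq2's test FLNC was not called there (adjusted p = 0.112). Between ZNF263 overexpression and WT 2 were called, 4 in a fit of these 2 groups alone and 0 against the minimum change, and leaving out a library gave 2 to 2. Uncalled log2 fold changes near 0 changed sign when a library was left out, with ranges of -0.048 to 0.22 for ACTA1 and -0.038 to 0.0032 for TPM1 under ZNF263 overexpression, and of -0.20 to 0.0034 for TAGLN with ZIC2 in knockout; the cause was not tested. Of all genes tested, 118 were called between ZNF263 overexpression and WT, against 431 in a fit of these groups alone, 220 with no filter, 230 with the offset, 231 with offset and block, 50 to 77 with a library left out and 3 against the minimum change. Between the knockout groups 1288 were called, against 842 without knockout with ZIC2 replicate 1 and 111 against the minimum change, which left 177 of 5951 for knockout against WT, 256 of 5804 for knockout with ZIC2 against WT and 327 of 5359 for knockout with ZIC2 against ZNF263 overexpression. The replicate block left the count of calls at 10 for knockout against WT, 4 between the knockout groups and 2 for ZNF263 overexpression. Same-numbered libraries of different groups had correlations of -0.41 to 0.35, and 3 of 12 libraries correlated best with their own number. ACTG2, the scarcest member, had the widest standard errors (0.10 to 0.17).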

Other observations

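Some genes of the neighbouring lists were higher with ZIC2 in knockout cells. Called higher were 2 of 9 tested smooth muscle genes, 2 of 9 immediate early genes and 2 of 8 fibroblast and mesenchyme markers. Of these lists only the last had a gene called lower, THY1 (log2 fold change -0.19, SE 0.04, edgeR adjusted p = 0.0012). Over all tested genes 4.99% were called higher and 3.35% lower. The intermediate filament gene DES stood at 1.81 CPM in knockout with ZIC2 and 0.4996 CPM in knockout (log2 fold change 1.78, SE 0.29, edgeR adjusted p = 0.000207). SMTN, smoothelin, a marker of contractile smooth muscle, stood at 20.6 CPM in knockout with ZIC2 and 12.99 CPM in knockout (0.68, SE 0.08, edgeR adjusted p = 2.64e-06). The immediate early gene EGR1 stood at 16.5 CPM and 7.28 CPM in the same groups (1.18, SE 0.10, edgeR adjusted p = 1.31e-08), and the collagen gene COL1A1 at 210.6 CPM and 110.5 CPM (0.94, SE 0.06, edgeR adjusted p = 4.49e-11). These lists were made with the set, and no test compares them with it.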
